A study of Mus musculus with 6 samples.

Results

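Bdnf, Pdgfa, Pdgfb, Pdgfc, Vegfa, Vegfb, Hgf, Hbegf and Gdf15 encode secreted growth factors that microglia can release, and their transcripts were followed in cultured neonatal mouse microglia. The set was chosen by gene symbol, with the insulin-like growth factor and TGF-β families left out, and comprised 9 of the 41079 genes in the deposited tables. Of these 9, 8 passed the filter on low counts, among 14618 genes that could be tested, and Bdnf did not. RNA was sequenced from 6 libraries, 3 control and 3 optimized. All 6 came from C57Bl/6N mice aged 1 to 3 days, whose brain cells were grown in mixed flasks fed with medium conditioned by L-929 fibroblasts (a source of the macrophage growth factor M-CSF) before the microglia were shaken off. Each flask pooled several brains, and both groups met serum in the flasks and briefly while attaching to the wells. Control microglia were then kept in serum-free DMEM/F12. Per the labels, the treated microglia received human TGF-β, IL-34 and CX3CL1 at 100 ng/mL each. The methods of the study add cholesterol, an insulin-transferrin-selenium supplement and a collagen IV coating to the optimized condition, so the effects of the single components cannot be told apart. The methods of the study describe repeated harvests from flasks kept for several weeks, followed by days in the wells. The cells were thus not fresh from the brain. Which harvest and which time in the wells applied to each library was not given in the sources used here.

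These factors belong to separate signalling systems. BDNF acts on neurons through the receptor TrkB. The PDGF chains form dimers that act on mural cells, fibroblasts and oligodendrocyte precursors, VEGF-A is the main driver of blood vessel growth, and VEGF-B binds only the receptor FLT1 of the VEGF receptor kinases. HGF signals through the receptor MET, HB-EGF through the EGF receptor family, and GDF15 is a hormone released by stressed cells that acts through GFRAL in the brainstem. Microglia are long-lived macrophages of the brain and are known to release several of these factors to neighbouring neurons, glia and vessels.

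The count totals lay between 20628148 and 27261839. Markers of microglia were abundant, with a summed level of 8450 to 9076 CPM (counts scaled to a library of fixed size) in control cultures against 12892 to 16299 CPM in optimized cultures. The optimized library 1 stood apart from the rest, since 65 genes had at least 20 counts there and at most 1 count in each other library. The other 5 libraries had 0 or 1 such genes. Results are therefore also given without this library where it mattered.

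In the optimized condition, Hgf and Pdgfa rose most, Vegfa rose to a smaller degree, Pdgfb and Vegfb rose slightly, and Gdf15 fell. Pdgfc and Hbegf did not pass the test, and Bdnf was near the limit of detection in both groups. By the quasi-likelihood test of edgeR, with p-values adjusted by Benjamini-Hochberg across every tested gene (the edgeR adjusted p below) and a threshold of 0.05, 5 of the 8 tested factors were higher and 1 was lower. In CPM the groups did not overlap for 7 of the 8, against 43.9% of all tested genes. Across all tested genes 29.8% passed this threshold, 14.7% being higher and 15.2% lower. The median log2 fold change was 0.39 over the 8 factors and 0.0079 over all tested genes. Since the study calls its samples independent biological replicates but the labels do not say how the cultures were separated, the p-values measure the spread between these libraries. The proportion of higher genes depended on the scaling. It was 49.1% of all genes past the threshold with TMM scaling, 32.3% with scaling to library size alone, and 28.6% to 33.1% in the FPKM tests. Both of these shifted the median gene by about -0.13 to -0.14 on the log2 scale, so small increases below are relative to the TMM scale.

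**Figure D1:**
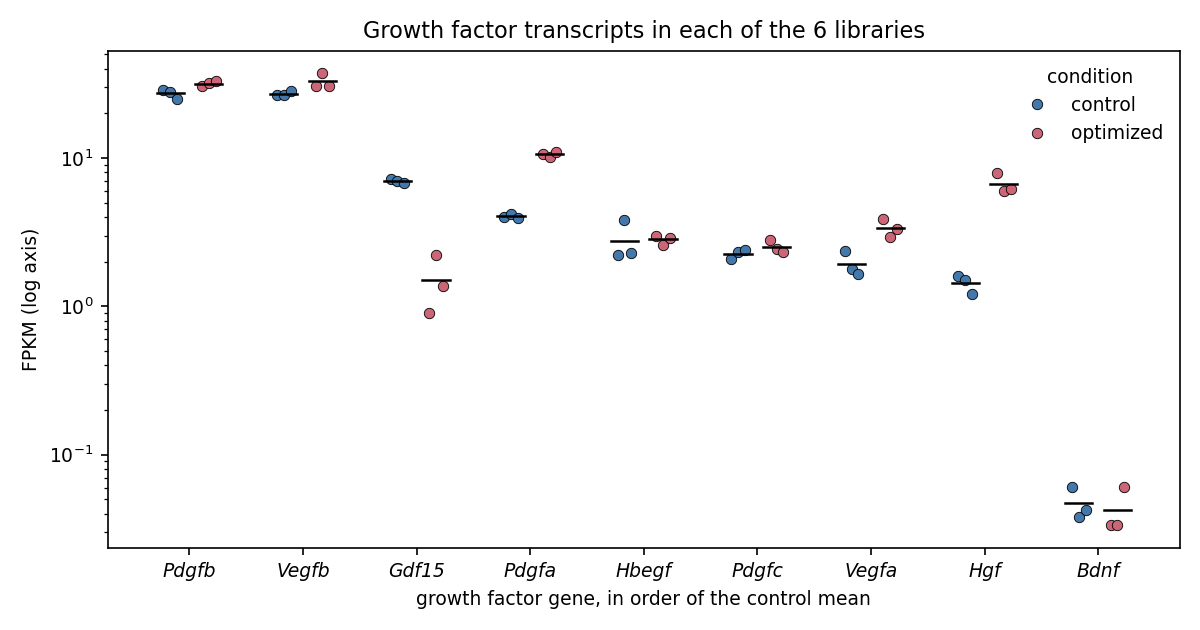
FPKM (fragments counted per gene, divided by gene length and library size, log axis) of the 9 growth factor genes in each library, with the control libraries in blue, the optimized libraries in red and a line at each group mean, ordered by the control mean. Pdgfb and Vegfb were the most abundant in both groups, Hgf rose from 1.44 to 6.71 FPKM, Gdf15 fell from 7.01 to 1.5 FPKM, and Bdnf stayed below 0.1 FPKM.

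The promoter sequences of the 4 factors with the largest changes are shown with elements of the hypoxia pathway, whose genes are described further below, and of the SMAD proteins that act downstream of TGF-β, a component of the optimized medium. Each is the stretch of 250 bases before the start of the canonical transcript (GENCODE M39, GRCm39), read 5′ to 3′ on the gene's own strand and found in the same genome build as the reads. The windows are chr5:138981437-138981686 for Pdgfa, chr17:46343310-46343559 for Vegfa and chr8:71085112-71085361 for Gdf15, all on the minus strand, and chr5:16758534-16758783 on the plus strand for Hgf. Capitals mark the cores of the hypoxia response element, ACGTG and GCGTG, and the SMAD element CAGAC, each searched on both strands, so that GTCTG is CAGAC on the other strand.
Pdgfa: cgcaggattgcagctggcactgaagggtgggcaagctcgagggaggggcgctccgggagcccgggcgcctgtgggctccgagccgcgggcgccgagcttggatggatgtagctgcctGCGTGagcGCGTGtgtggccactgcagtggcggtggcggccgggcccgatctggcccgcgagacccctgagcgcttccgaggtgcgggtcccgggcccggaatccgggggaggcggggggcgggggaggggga
Vegfa: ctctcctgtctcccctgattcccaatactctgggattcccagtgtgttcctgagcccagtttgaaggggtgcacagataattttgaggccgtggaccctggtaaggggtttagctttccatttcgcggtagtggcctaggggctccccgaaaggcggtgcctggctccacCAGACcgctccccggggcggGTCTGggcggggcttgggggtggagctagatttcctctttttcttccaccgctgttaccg
Hgf: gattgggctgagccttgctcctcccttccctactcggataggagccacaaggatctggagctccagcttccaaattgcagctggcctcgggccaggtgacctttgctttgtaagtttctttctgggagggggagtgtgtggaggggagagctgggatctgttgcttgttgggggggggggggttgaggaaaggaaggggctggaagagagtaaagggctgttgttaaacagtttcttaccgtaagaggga
Gdf15: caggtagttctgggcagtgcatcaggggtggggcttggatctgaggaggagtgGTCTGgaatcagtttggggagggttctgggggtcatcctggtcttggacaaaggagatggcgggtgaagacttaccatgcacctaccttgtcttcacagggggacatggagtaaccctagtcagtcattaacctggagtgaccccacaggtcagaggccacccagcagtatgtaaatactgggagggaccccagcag

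The Pdgfa window held 2 copies of GCGTG, which start 133 and 125 bases before the transcript start. The Vegfa window held 2 copies of CAGAC at 80 and 60 bases, and the Gdf15 window held 1 copy at 197 bases. Neither the Vegfa nor the Gdf15 window held ACGTG or GCGTG. The Hgf window held none of the 3 words, which says only that these letters are not in this stretch. Among 21000 promoter windows of the same length, 17.2% held ACGTG, 31.6% held GCGTG and 41.3% held CAGAC. The marked words are thus common ones. None of the sites was measured here.

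Hgf, a factor that promotes survival, migration and branching of epithelial, endothelial and neural cells, was the member with the largest rise. It had 254, 257 and 246 counts in control cultures against 1263, 1149 and 986 counts in optimized cultures. The lowest optimized library was far above the highest control library, and the optimized library 1 was the highest. After TMM scaling, Hgf rose from 10.2 ± 1.08 to 52.1 ± 6.67 CPM (n = 3 each, SD), a 5.12-fold increase. The log2 fold change was 2.36 (SE 0.13, edgeR adjusted p = 8.4e-07), and it was 2.25 without the optimized library 1. Over all 15 alternative settings it ranged from 1.65 to 2.42, always with a call.

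Pdgfa, which encodes the PDGF chain best known for driving proliferation of oligodendrocyte precursors, rose with very little spread. Its counts were 608, 684 and 765 in control cultures against 1630, 1876 and 1670 in optimized cultures. On the CPM scale the groups lay apart, at 27.5 ± 0.792 against 79.3 ± 1.87 (n = 3 each, SD), a 2.88-fold increase. The log2 fold change was 1.53 (SE 0.08, edgeR adjusted p = 7.1e-07). Pdgfa exons overlap those of 6330403L08Rik on the opposite strand over 2552 bases. That gene had a mean of 329 counts against 1206 for Pdgfa and also rose, with a log2 fold change of 1.06. The strand setting of the counting was not given in the sources used here, so reads from this pair cannot be told apart in the shared bases.

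Pdgfb, the chain that recruits pericytes to vessels, was among the most abundant members. It measured 141, 137 and 131 CPM in control cultures against 162, 186 and 179 CPM in optimized cultures, without overlap. The increase was 1.29-fold, with a log2 fold change of 0.36 (SE 0.09, edgeR adjusted p = 0.00937). It did not pass with scaling to library size alone, where the log2 fold change was 0.23 (edgeR adjusted p = 0.0685), nor in the 3 limma fits on FPKM. Without control library 3 the log2 fold change was 0.33 (edgeR adjusted p = 0.0557).

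Pdgfc, a chain that is released in a latent form and opened by proteases such as tissue plasminogen activator, was lower in level. It measured 7.21, 7.95 and 8.79 CPM in control cultures against 10.6, 9.88 and 8.85 CPM in optimized cultures. The groups just missed each other in CPM but overlapped in FPKM. The log2 fold change of 0.29 did not pass (95% interval -0.01 to 0.59, edgeR adjusted p = 0.142), and it passed under none of the 15 alternative settings.

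The VEGF pair moved in the same direction by different amounts. Vegfa had 219, 177 and 194 counts in control cultures against 360, 328 and 308 counts in optimized cultures. Every optimized library was above every control library, and the level rose from 7.96 ± 1.40 to 15.3 ± 1.58 CPM (n = 3 each, SD). This was a 1.92-fold increase, with a log2 fold change of 0.94 (SE 0.15, edgeR adjusted p = 0.000897) that held its call under all 15 alternative settings, between 0.58 and 1.09.

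Vegfb, linked to fatty acid handling and to survival of vessel and nerve cells, measured 33.1, 32.7 and 37.0 CPM in control cultures against 41.2, 54.3 and 41.9 CPM in optimized cultures. The groups did not overlap, and the optimized library 2 stood above the other optimized libraries. The log2 fold change was 0.42 (SE 0.12, edgeR adjusted p = 0.0265), a 1.34-fold increase. Without the optimized library 2 it was 0.27 (edgeR adjusted p = 0.075), without control library 1 it was 0.39 (edgeR adjusted p = 0.102), and without control library 2 it was 0.38 (edgeR adjusted p = 0.117). It also did not pass with scaling to library size alone (0.29, edgeR adjusted p = 0.0629) or in the 3 limma fits on FPKM.

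Hbegf, a membrane-bound EGF family ligand that is shed by metalloproteases, overlapped between the groups. Its counts were 116, 213 and 152 in control cultures against 157, 165 and 152 in optimized cultures. Control library 2 was the highest of all 6, and the 3 optimized libraries lay close together. The log2 fold change was 0.17 (95% interval -0.28 to 0.63, edgeR adjusted p = 0.578). Without control library 2 it was 0.45 (edgeR adjusted p = 0.0823). The exons of Hbegf overlap those of the predicted gene Gm41698 on the opposite strand over 831 bases, at a mean of 35.3 counts against 159 for Hbegf.

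Gdf15, a distant relative of the TGF-β family whose transcript is induced by the integrated stress response and by p53, was the member that fell. It had 221, 232 and 266 counts in control cultures against 28, 83 and 42 counts in optimized cultures. The control libraries were nearly equal after scaling, at 9.66, 9.46 and 9.74 CPM, while the optimized libraries spread over 1.33, 3.53 and 2.03 CPM, all below the controls. The level fell 4.14-fold, with a log2 fold change of -2.05 (SE 0.28, edgeR adjusted p = 0.000326). It was -1.77 without the optimized library 1 and -2.53 without the optimized library 2, and it held its call under all 15 alternative settings.

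Bdnf, the neurotrophin that supports synapses, had 9, 6 and 8 counts in control cultures against 5, 6 and 9 counts in optimized cultures. The groups overlapped fully, and the counts summed to 23 and 20. The ratio of optimized to control, per scaled library, was 0.995 with an exact Poisson 95% interval of 0.518 to 1.89, which covers counting error only. A change of Bdnf within these bounds was not detectable at this depth. Without the filter on low counts its log2 fold change was -0.03 (SE 0.70, edgeR adjusted p = 0.98).

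**Figure D2:**
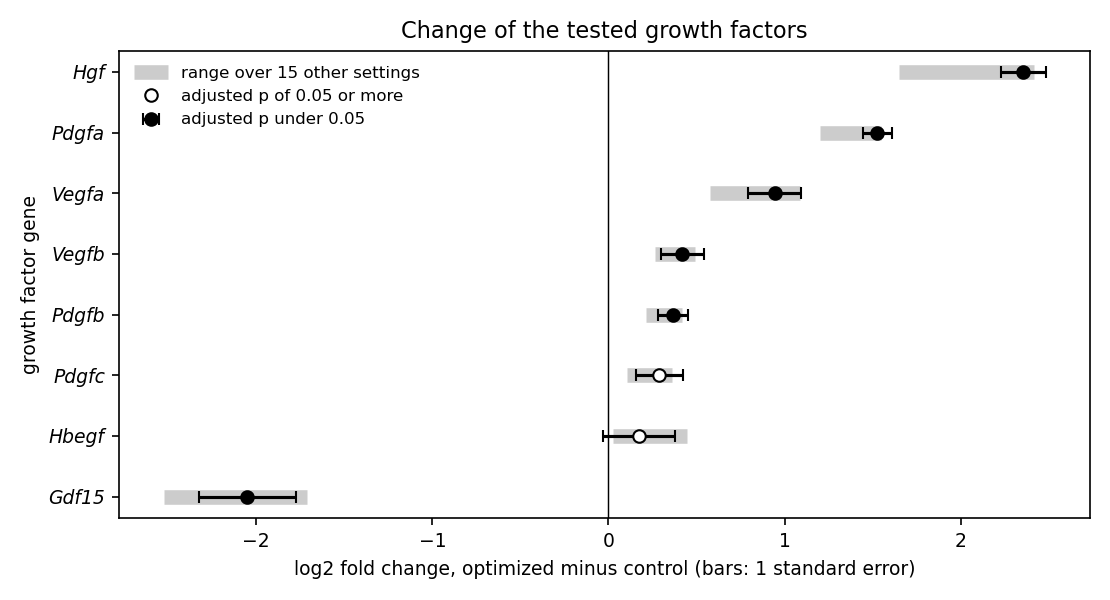
Log2 fold change (optimized minus control) of the 8 tested growth factors by edgeR, with bars of 1 standard error, filled points for an adjusted p under 0.05 and grey bands for the range over 15 other settings. Hgf (2.36) and Pdgfa (1.53) lie farthest to the right, Gdf15 (-2.05) lies alone on the left, and the values of Hbegf and Pdgfc are the open points.

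The order of the members by transcript level was read from FPKM, which divides by gene length. In the control libraries the order ran from Pdgfb (27.3 ± 1.93 FPKM, SD, n = 3) and Vegfb (27.1 ± 0.889) through Gdf15 (7.01 ± 0.193), Pdgfa (4.05 ± 0.137), Hbegf (2.76 ± 0.900), Pdgfc (2.26 ± 0.157), Vegfa (1.94 ± 0.381) and Hgf (1.44 ± 0.2) to Bdnf (0.0470 ± 0.012). The neighbours Pdgfb and Vegfb, Hbegf and Pdgfc, and Pdgfc and Vegfa had overlapping libraries, and the other neighbours did not. In the optimized libraries the order ran from Vegfb (32.8 ± 3.83 FPKM) and Pdgfb (31.8 ± 1.26) through Pdgfa (10.6 ± 0.391), Hgf (6.71 ± 1.07), Vegfa (3.39 ± 0.479), Hbegf (2.83 ± 0.201), Pdgfc (2.52 ± 0.262) and Gdf15 (1.5 ± 0.671) to Bdnf (0.0426 ± 0.016). There Vegfb and Pdgfb, Vegfa and Hbegf, and Hbegf and Pdgfc overlapped. Gdf15 thus moved from rank 3 to rank 8 and Hgf from rank 8 to rank 4. The order depends on the gene lengths behind the FPKM values. These imply 1439 bases for Vegfb, against 3255 bases of summed exons in GENCODE M39. With the GENCODE lengths, an alternative chosen after seeing the data, Vegfb stood at 10.5 and 14.1 CPM per kilobase and Pdgfb at 32.1 and 41.4 CPM per kilobase in the control and optimized groups. Gdf15 held ranks 3 and 8 on that scale too, and Hgf ranks 8 and 4.

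The summed FPKM of the 9 members rose from 73.9 ± 2.04 to 92.2 ± 3.15 (n = 3 each, SD), and the groups did not overlap. Pdgfb and Vegfb together made up 73.6% ± 1.03 of that sum in the control libraries and 70.0% ± 2.43 in the optimized libraries, where the groups overlapped. The share of Pdgfa went from 5.48% to 11.5% and that of Hgf from 1.95% to 7.29%, while the share of Gdf15 went from 9.48% to 1.61%.

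A total of 4 pairs of factors were compared as log2 ratios of FPKM within each library, by a two-sided exact permutation test of 3 against 3 libraries, which cannot go below p = 0.1. Pdgfa relative to Pdgfb moved from -2.75 ± 0.09 to -1.58 ± 0.08 (n = 3 each, SD), a difference of 1.17 with no overlap (exact p = 0.1, adjusted over the 4 ratios 0.2). Hbegf relative to Hgf moved from 0.90 ± 0.43 to -1.24 ± 0.16, a difference of -2.14 with no overlap (exact p = 0.1, adjusted 0.2). In words, Hbegf exceeded Hgf in every control library and was below it in every optimized library. Vegfa relative to Vegfb differed by 0.54 with overlapping groups (exact p = 0.2, adjusted 0.267), and Pdgfb relative to Pdgfc differed by 0.07 (exact p = 0.7, adjusted 0.7).

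Receptors and co-receptors of these factors formed a mixed group. Of 14 listed genes, 11 were tested, 2 rose, 3 fell and 6 did not pass, with a median log2 fold change of 0.26. Across all tested genes 14.7% rose and 15.2% fell. Flt1, the receptor for VEGF-A and VEGF-B that also acts as a decoy, measured 92.7, 76.7 and 79.6 CPM in control cultures against 347, 269 and 279 CPM in optimized cultures. The groups were far apart, and the log2 fold change was 1.85 (SE 0.12, edgeR adjusted p = 2.8e-06). Sort1, which sorts BDNF and binds its precursor, rose from 97.1 ± 4.53 to 185 ± 11 CPM (n = 3 each, SD; log2 fold change 0.93, SE 0.08, edgeR adjusted p = 2.3e-05).

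The neuropilins fell. Nrp1, a co-receptor of VEGF-A and of semaphorins, measured 481, 469 and 449 CPM in control cultures against 259, 227 and 237 CPM in optimized cultures, with a log2 fold change of -0.95 (SE 0.09, edgeR adjusted p = 2.5e-05). Nrp2 fell from 585 ± 30.9 to 302 ± 44.5 CPM (n = 3 each, SD), and its log2 fold change was -0.96 (SE 0.12, edgeR adjusted p = 0.000166). Cd44, whose variants present HGF to MET, fell from 216 ± 10.2 to 149 ± 8.44 CPM (n = 3 each, SD), and its log2 fold change was -0.54 (SE 0.08, edgeR adjusted p = 0.00087). These 3 falls and the 2 rises held under every alternative setting.

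The receptor kinases other than Flt1 were scarce and did not pass the test. Met, the HGF receptor, had 21, 29 and 44 counts in control cultures against 55, 35 and 38 counts in optimized cultures, with overlap (log2 fold change 0.66, SE 0.32, edgeR adjusted p = 0.161). Kdr, the main VEGF-A signalling receptor, had a mean of 2.59 CPM in control cultures against 3.10 CPM in optimized cultures (log2 fold change 0.26, SE 0.19). Ntrk2, which encodes TrkB, had 107 to 150 counts per library and a log2 fold change of 0.09 (SE 0.17). The log2 fold changes of the PDGF receptors Pdgfra (0.20, SE 0.25) and Pdgfrb (0.36, SE 0.59) and of Egfr (0.31, SE 0.42) were also within their errors. Ngfr and Erbb4 had at most 10 counts in any library and were not tested. Gfral, the receptor of GDF15, had 0 counts in all 6 libraries.

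Of 16 other ligands of the same families, 12 were too low to test. Tgfa, a ligand of the EGF receptor like HB-EGF, measured 17.9, 14.7 and 16.6 CPM in control cultures against 44.8, 42.7 and 42.8 CPM in optimized cultures. The groups did not overlap, and the log2 fold change of 1.40 (SE 0.10, edgeR adjusted p = 4.7e-06) contrasts in size with the 0.17 of Hbegf. The difference between these log2 fold changes was not tested. Nrg1 (0.03, SE 0.27) and Nrg4 (0.08, SE 0.14) had log2 fold changes within their errors, and Nrg4 shares exon bases with the more abundant Fbxo22 on the opposite strand. The median log2 fold change of the 4 tested ligands was 0.16.

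Most growth factors are made as precursors and become active after cleavage, so the proteases and inhibitors of these steps were examined as a further list. Of 20 genes, 17 were tested, 5 rose, 3 fell and 9 did not pass, with a median log2 fold change of 0.28. The shares over all tested genes were 14.7% higher and 15.2% lower. Spint1, which encodes an inhibitor of the proteases that activate HGF, had 30, 39 and 36 counts in control cultures against 352, 363 and 408 counts in optimized cultures. The groups were widely separated, with a 12.2-fold increase and a log2 fold change of 3.61 (SE 0.17, edgeR adjusted p = 3.0e-07). Cd9, a tetraspanin that associates with membrane-bound HB-EGF, rose from 421 ± 40.7 to 1179 ± 162 CPM (n = 3 each, SD; log2 fold change 1.49, SE 0.13). Furin, which cleaves the precursors of PDGF and BDNF, rose from 97.7 ± 8.79 to 210 ± 7.41 CPM (n = 3 each, SD; log2 fold change 1.10, SE 0.09, edgeR adjusted p = 1.3e-05).

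The genes that fell in this list were 3 proteases. Mmp9, a gelatinase that can free VEGF-A from matrix, had 595, 606 and 1015 counts in control cultures against 14, 10 and 54 counts in optimized cultures, a 24.2-fold decrease (log2 fold change -4.60, SE 0.43, edgeR adjusted p = 3.1e-05). Its log2 fold change was -5.75 without the optimized library 3 and -4.18 without the optimized library 2, the range over all 6 libraries left out in turn. Hpn, which encodes hepsin, a protease that can activate HGF, fell from 18.9 ± 1.34 to 6.90 ± 0.646 CPM (n = 3 each, SD; log2 fold change -1.45, SE 0.12). Mmp14, a membrane-bound metalloprotease, fell from 132 ± 4.15 to 76.1 ± 4.84 CPM (n = 3 each, SD; log2 fold change -0.80, SE 0.08). St14, named after its values were seen, encodes matriptase, another protease that can activate HGF, and it rose with a log2 fold change of 0.80 (SE 0.08, edgeR adjusted p = 5.4e-05). The protease genes that can act on HGF therefore moved in both directions. Hgfac and Spint2, also named after their values were seen, stood apart in the optimized library 1. Hgfac, the HGF activator, had 54 counts there and 0 in the other 5 libraries. Spint2 had 94 counts there and 7 to 15 counts elsewhere, so that its log2 fold change of 1.79 (edgeR adjusted p = 0.163) became -0.36 without that library.

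**Figure D3:**
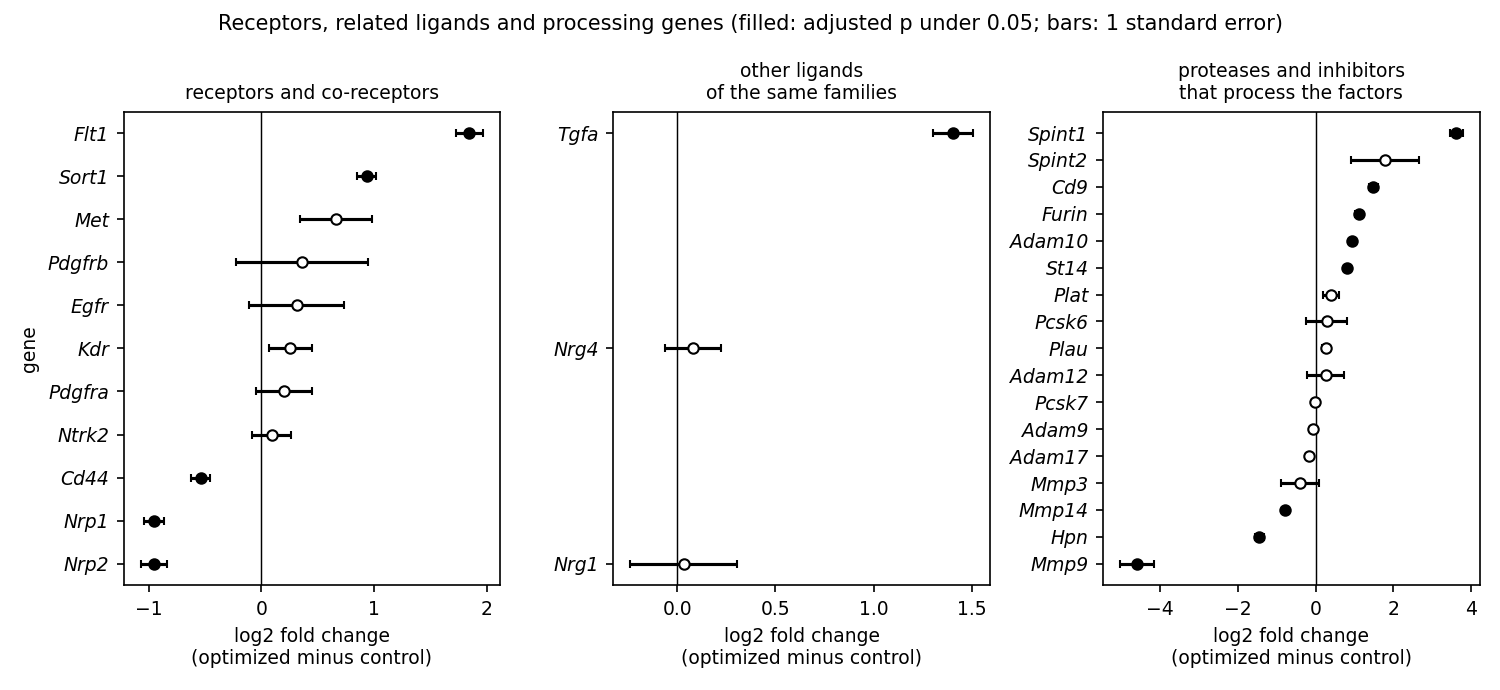
Log2 fold change (optimized minus control) by edgeR of the tested receptors, related ligands (3 of the 4 tested) and processing genes, with bars of 1 standard error and filled points for an adjusted p under 0.05. Flt1 (1.85), Tgfa (1.40) and Spint1 (3.61) head their panels, and the neuropilins (-0.95 and -0.96) and Mmp9 (-4.60) stand at the low end.

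Vegfa is a known target of the hypoxia-inducible factors, and 20 genes of that pathway were tested. In this list 13 genes rose and 7 did not pass, with a median log2 fold change of 0.48, against 14.7% of all tested genes that rose. The list was chosen with earlier results of these data known, so its share is a description only. With 1 library left out, 9 to 14 genes of the list were higher and 0 to 1 lower. Egln3, an oxygen sensor that is itself induced by hypoxia-inducible factors, measured 17.3, 16.1 and 18.0 CPM in control cultures against 103, 123 and 119 CPM in optimized cultures, without overlap (log2 fold change 2.75, SE 0.10, edgeR adjusted p = 9.3e-08). Bnip3, a mitophagy receptor and target of the pathway, rose from 31.2 ± 3.02 to 98.1 ± 6.23 CPM (n = 3 each, SD; log2 fold change 1.65, SE 0.10). Vhl, which directs the factors to degradation, rose from 32.2 ± 1.33 to 83.1 ± 9.04 CPM (n = 3 each, SD; log2 fold change 1.37, SE 0.10). Hif1a, the oxygen-regulated subunit, named after its values were seen, rose from 158 ± 8.89 to 324 ± 18.6 CPM (n = 3 each, SD; log2 fold change 1.04, SE 0.09). Among the 7 that did not pass were Pgk1 (-0.03, edgeR adjusted p = 0.864), Adm (-0.43, 0.517) and Car9 (0.26, 0.256). These were also named after their values were seen. Ankrd37, counted among the 13, shares exon bases with the more abundant Ufsp2 on the opposite strand.

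The list thus held both targets of the pathway and genes that restrain it. Its smallest increases past the threshold were those of the demethylase gene Kdm3a (log2 fold change 0.45, edgeR adjusted p = 0.00591), the stress gene Ndrg1 (0.44, edgeR adjusted p = 0.0286) and the pyruvate dehydrogenase kinase gene Pdk1 (0.27, edgeR adjusted p = 0.032). All 3 lost their calls with scaling to library size alone. Ndrg1 also lost its call without any 1 of the control libraries (0.41, 0.41 and 0.50) or without the optimized library 2 (0.43). Pdk1 lost its call without any 1 of the control libraries (0.30, 0.30 and 0.21) and without the optimized library 2 (0.27) or 3 (0.26). The limma fits on log2(FPKM + 1) and log2(FPKM + 0.1) called 8 of the 20 genes higher and 1 lower.

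Genes of the stress pathways that can induce Gdf15 were tested as a list of 12, of which 1 rose, 4 fell and 7 did not pass, with a median log2 fold change of -0.34. Of all tested genes, 14.7% rose and 15.2% fell. The 7 that did not pass included Atf4 (log2 fold change -0.28, edgeR adjusted p = 0.121), Atf3 (-0.04, 0.808) and Mdm2 (-0.20, 0.133). Atf4, Atf3 and Mdm2 were named after their values were seen. Cdkn1a, a cell cycle inhibitor induced by p53, measured 182, 193 and 193 CPM in control cultures against 74.7, 94.2 and 95.2 CPM in optimized cultures, without overlap (log2 fold change -1.10, SE 0.11, edgeR adjusted p = 3.5e-05). Nfe2l2, the master regulator of the oxidative stress response, fell from 327 ± 11.7 to 166 ± 6.40 CPM (n = 3 each, SD; log2 fold change -0.97, SE 0.08). Ddit3, which encodes the endoplasmic reticulum stress factor CHOP, fell with a log2 fold change of -0.67 (SE 0.13, edgeR adjusted p = 0.00266), and its exons overlap those of Mars1 and Mbd6 on the opposite strand. Trp53, which encodes p53, fell with a log2 fold change of -0.34 (SE 0.09, edgeR adjusted p = 0.0164), and without control library 3 it did not pass (-0.28, edgeR adjusted p = 0.0801). Egr1 was the gene of this list that rose (log2 fold change 0.51, SE 0.11, edgeR adjusted p = 0.00494), and it did not pass in the limma fits on log2(FPKM + 1) and log2(FPKM + 0.1). With scaling to library size alone, 7 of the 12 genes fell.

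Activity-dependent genes that in neurons accompany Bdnf changed in both directions while Bdnf itself stayed near the detection limit. Of 12 genes tested, 3 rose, 4 fell and 5 did not pass, with a median log2 fold change of -0.15. The shares over all tested genes were 14.7% and 15.2%, in the same order. Fosb had 13, 10 and 12 counts in control cultures against 43, 41 and 39 counts in optimized cultures (log2 fold change 1.99, SE 0.30, edgeR adjusted p = 0.000693). Fos, its relative in the AP-1 family, fell from 44.2 ± 1.47 to 22.5 ± 2.19 CPM (n = 3 each, SD; log2 fold change -0.97, SE 0.10, edgeR adjusted p = 5.0e-05). Junb rose (0.53, edgeR adjusted p = 0.00965), and without control library 2 it did not pass (0.51, edgeR adjusted p = 0.057), nor did it in the limma fits on log2(FPKM + 1) and log2(FPKM + 0.1). Junb exons overlap those of Prdx2 on the opposite strand over 173 bases. Prdx2 had a mean of 3074 counts against 2963 for Junb.

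Crem, named after its values were seen, had 246, 313 and 359 counts in control cultures against 137, 195 and 168 counts in optimized cultures. Its log2 fold change was -0.68 (SE 0.14, edgeR adjusted p = 0.00528), and it kept its call with any 1 library left out. The falls of Npas4 and Egr3 in this list rested on few counts. Npas4 had 70 to 103 counts in control cultures against 33 to 58 in optimized cultures (log2 fold change -0.87, edgeR adjusted p = 0.0435), and Egr3 had 50 to 59 and 23 to 31 (-0.84, edgeR adjusted p = 0.0321). Npas4 lost its call without control library 1 (-0.71) or 3 (-0.88) and without the optimized library 2 (-0.67) or 3 (-0.83). Egr3 lost its call without any 1 of the control libraries (-0.85, -0.84 and -0.86) and without the optimized library 1 (-0.77) or 2 (-0.76). The count of genes in this list that fell was 2 without control library 1 or 3 or the optimized library 2. Together the 6 lists of receptors, ligands, processing genes and regulators held 93 genes, of which 75 were tested, 24 rose and 14 fell, with a median log2 fold change of 0.20. Across all tested genes 14.7% rose and 15.2% fell.

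**Figure D4:**
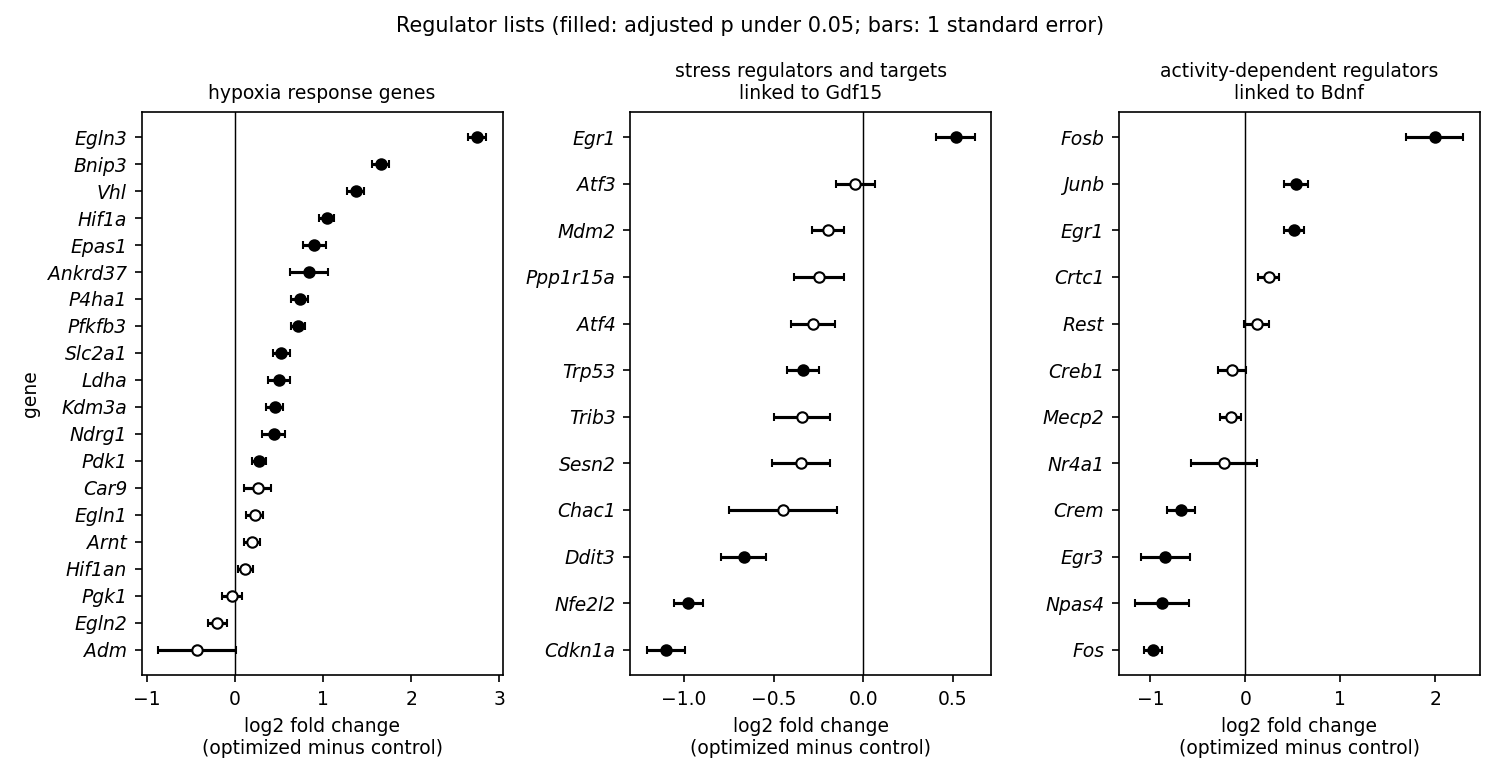
Log2 fold change (optimized minus control) by edgeR of the hypoxia response genes, the stress genes linked to Gdf15 and the activity-dependent genes linked to Bdnf, with bars of 1 standard error and filled points for an adjusted p under 0.05. Filled points of the hypoxia list all lie to the right of 0, from Pdk1 (0.27) to Egln3 (2.75), whereas Cdkn1a (-1.10) and Fos (-0.97) stand at the low end of the other panels.

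Other brain cells also make these factors, and in bulk RNA fewer cells of a type and less RNA per cell cannot be told apart. The summed markers of astrocytes lay at 33.4 to 36.2 CPM in the control libraries and lower, at 22.1 to 25.7 CPM, in the optimized libraries. The fall came from Aldh1l1, which went from 16.5 to 4.64 CPM, and the other 5 astrocyte markers did not pass the test. Neuron markers lay at 3.07 to 4.72 CPM and 5.30 to 6.34 CPM, in the same order. Among them Nefl rose from 4, 7 and 6 counts to 19, 35 and 21 counts (log2 fold change 2.30, edgeR adjusted p = 0.00189), and Snap25 had at most 1 count in any library. The exons of Nefl overlap those of Nefm on the opposite strand over 1152 bases. Nefm had a mean of 22.2 counts against 15.3 for Nefl. Oligodendrocyte markers lay at 135 to 151 CPM in the control libraries and 164 to 202 CPM in the optimized libraries. Fibroblast markers lay at 52.3 to 59.9 CPM in the control libraries and spread over 30.7 to 90.5 CPM in the optimized libraries, the highest being library 3.

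The sums of vessel-related markers moved more, each mainly through 1 gene. The pericyte list lay at 247 to 273 CPM in the control libraries and at 63.0 to 77.7 CPM in the optimized libraries, nearly all of it from Anpep, which fell from 262 to 68.8 CPM. The endothelial list lay at 12.7 to 16.3 CPM in the control libraries and at 42.9 to 51.0 CPM in the optimized libraries, mostly from Vwf, which rose from 12.1 to 43.4 CPM. Cldn5 and Tie1 had 2 and 10 counts in the optimized library 1, which stood apart, and 0 counts in the other 5 libraries. In the pericyte list, Rgs5 and Kcnj8 had 37 and 6 counts in that library and at most 1 count in any other. Pdgfrb of the pericyte list did not pass (log2 fold change 0.36, SE 0.59). Pecam1 (0.36, SE 0.58) and Cdh5 (0.23, SE 0.38) of the endothelial list did not pass either. Of the microglia markers, 5 of 9 rose, 2 fell and 2 did not pass, whereas 14.7% of all tested genes rose and 15.2% fell. In the 6 other marker lists together, 1 gene each of the neuron, oligodendrocyte and endothelial lists rose, and 1 gene each of the astrocyte, fibroblast and pericyte lists fell. The part of these marker shifts in the growth factor results was not tested.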

How the data were processed

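RNA-seq of 6 mouse microglia libraries was analysed, 3 control and 3 optimized, grouped and numbered from their labels. Per the labels and the methods of the study, the authors used Galaxy, where HISAT2 aligned the reads to mm39 and featureCounts assigned them to genes. Versions, annotation and strand setting were not given in the sources used here. The authors deposited raw counts per gene, not normalized, and FPKM values (counts divided by gene length and library size) for the same 41079 genes. FPKM served for levels between genes, ratios within libraries and the limma alternatives.

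The counts were fitted by edgeR 4.0.16 under R 4.3.3 (filterByExpr, TMM factors, glmQLFit and glmQLFTest, no covariate), with Benjamini-Hochberg adjustment over 14618 genes and a threshold of 0.05. The common dispersion was 0.0164, a coefficient of variation between replicates of 0.128. CPM values are TMM-scaled. Count totals of 20628148 to 27261839 leave genes with few counts imprecise, and intervals from counts cover counting error only. Ratios were tested by exact permutation. No 2 libraries of a group agreed within sampling noise.

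The members and lists were chosen with earlier results of these data known. All members, the tested receptors and related ligands, and the 3 highest and 3 lowest genes past the threshold in each other list are named, except 1 gene that is not reported here, plus, per changed member, the 2 genes of closest pattern. Sequences and coordinates are from GENCODE M39 on GRCm39, in which 35087 symbols were found. The alternatives tried were DESeq2 1.42.0, scaling by relative log expression or by library size alone, a replicate block, dropping the filter or asking for 10 counts in each library, limma 3.58.1 on log2(FPKM + 1), on log2(FPKM + 0.1) and with a mean FPKM of at least 1, and each library left out in turn. Fold changes on the log2(FPKM + pseudocount) scale understate the change of low genes. The edgeR, DESeq2 and limma tests across genes were tested on simulated data.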

Additional observations from a re-analysis of the deposited data

How the results depend on the processing

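Pdgfa, Vegfa, Hgf and Gdf15 kept their direction and their call under all 15 alternative settings, and Pdgfc and Hbegf passed under none. With library size alone and in the 3 limma fits on FPKM, 3 growth factors were higher in place of 5, since Pdgfb and Vegfb no longer passed. With 1 library left out, 4 to 5 were higher and 1 was lower. Over all genes, 2142 were higher and 2218 lower in the edgeR test. The limma fits called 1307 genes higher and 2638 lower on log2(FPKM + 1), 1312 and 2664 on log2(FPKM + 0.1), and 1170 and 2923 at a mean FPKM of at least 1, and with 1 library left out 1603 to 2591 were higher and 1646 to 2643 lower. The log2 ratio of Pdgfb to Pdgfc differed by -0.028 to 0.19 with 1 library left out. The cause of these changes was not tested.

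Genes that changed sign had not passed. With library size alone, log2(FPKM + 1) and log2(FPKM + 0.1), the log2 fold change was -0.038, -0.0070 and -0.027 for Ntrk2, -0.094, -0.0085 and -0.037 for Nrg1, and -0.046, -0.044 and -0.060 for Nrg4, which was also at -0.060 with a mean FPKM of at least 1. With 1 library left out, it ranged from -0.53 to 0.82 for Pdgfrb, from -0.10 to 0.56 for Egfr, from -0.21 to 0.19 for Nrg1, from -0.025 to 0.17 for Nrg4 and from -0.36 to 2.28 for Spint2. Over 47 genes of the lists and all alternatives, members left aside, 625 of 692 values kept direction and side of the threshold, 50 lost the call, 1 gained it and 16 changed sign.

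Same-numbered libraries did not all deviate together (correlations over genes of 0.24, -0.01 and 0.18), so the numbers were not taken as pairs. With the replicate block 2401 genes were higher and 2523 lower, and 5 growth factors were higher and 1 was lower. Control library 2 did not correlate best with its own number. Depth limits Bdnf, with 5 to 9 counts per library, and the scarce receptors.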

Other observations

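The pattern of each changed growth factor over the 6 libraries was compared with that of 9823 genes with a mean of at least 5 CPM, by Pearson correlation of log2 CPM. Since the libraries fall into 2 conditions, any gene with a steady change of the same direction correlates highly, and the values are a description only. Nearest to Pdgfa were Chst1, a carbohydrate sulfotransferase gene, and Ptgs1, which encodes cyclooxygenase-1, each at r = 0.9998, with log2 fold changes of 4.24 and 2.61. Nearest to Hgf were Hk2, a hexokinase gene (r = 0.9997, log2 fold change 1.41), and Sort1 (r = 0.9993).

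The other members had neighbours of mostly smaller change. Nearest to Vegfa were Clcn4 (r = 0.998, log2 fold change 0.25) and Mfsd6 (r = 0.9968, 0.87). Nearest to Gdf15 were Sart1 (r = 0.9975, -0.16) and Prxl2b (r = 0.997, -1.66). For Pdgfb they were Retsat (r = 0.999) and Vav1 (r = 0.9936), and for Vegfb they were Pcdhga3 (r = 0.9944) and Apoc1 (r = 0.9929). The number of genes with r over 0.98 was 414 for Pdgfa, 377 for Hgf, 115 for Gdf15, 82 for Vegfa, 34 for Pdgfb and 23 for Vegfb.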
